A study of Schizosaccharomyces pombe with 16 samples.

Results

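Small nucleolar and spliceosomal RNAs of fission yeast were followed through an immunoprecipitation study of the RNA-binding protein Zfs1. The members are the transcripts whose systematic IDs begin with SPSNORNA. or SPSNRNA. in the deposited tables of normalized read counts. There were 60 of them among 7018 transcripts, 53 of the first kind and 7 of the second, and each had a row in both tables. The rule uses the IDs only and no measured value.

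RIP-Seq, the sequencing of RNA that co-precipitates with a protein, was done in 3 experiments. Zfs1 IPs came from a strain with zfs1 tagged by TAP at its own locus (zfs1-TAP::kanMX6, h-), and the inputs were the RNA of the same strain before precipitation. The mock control was a GFP-TAP fusion driven by the nmt1 promoter at a deleted leu1 locus in a ura4-D18 h+ strain, with its own IPs and inputs. RNA-Seq compared a zfs1Δ strain with the wild type in 2 experiments. All cells grew exponentially in minimal medium (EMM) at 25°C. The TAP-tagged strains also differ in mating type and auxotrophic markers. The paper describes the Zfs1 IPs as 3 biological repeats and the RNA-Seq as 2. No label says whether strains were represented by more than 1 clone, or the GFP-TAP strain by more than 1 culture. The p-values therefore refer to these samples only.

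Small nucleolar RNAs (snoRNAs) guide the maturation of ribosomal RNA in the nucleolus. Box C/D snoRNAs direct ribose methylation and bind fibrillarin, Nop56, Nop58 and Snu13, while box H/ACA snoRNAs direct pseudouridylation and bind Cbf5, Gar1, Nhp2 and Nop10. A few, among them U3 and U14 of the C/D kind and snR30 (U17) of the H/ACA kind, are needed for cleavage of the ribosomal RNA precursor. The snRNAs U1, U2, U4, U5 and U6 form the spliceosome with Sm or Lsm proteins. Zfs1 itself belongs to the tristetraprolin family of zinc finger proteins, which bind AU-rich elements in messenger RNAs.

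By RefSeq annotation of assembly ASM294v3, 5 of the SPSNRNA. members were the spliceosomal snRNAs U1 (snu1), U2 (snu2), U4 (snu4), U5 (snu5) and U6 (snu6), and the other 2 were copies of U3 (snu3, U3A, and snu32, U3B). Of the SPSNORNA. members, 20 were of the H/ACA class, 19 by annotation and snR30 by its ACA box. Of the remaining 33, 18 were of the C/D class, snoZ30 by annotation and 17 by motifs, and 15 were given no class. The motif search read the annotated strand for TGATGA in the first 25 bases (box C), present in 19 of the 33, for CTGA in the last 12 bases (box D), present in 28, and for ACA followed by 3 bases at the end, present in 10 of the 20 H/ACA members. A match is a sequence feature only. Sequences with features of the classes are given below for some of the members, among them U6 and snoZ30, which were given no test.

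The 5′ end of U1 has in capitals the stretch that pairs with the 5′ splice site of an intron.
snu1 (chrII:3020205-3020353, plus strand, bases 1 to 24): ACTTACCTGgcatgagtttctgca
The U2 stretch with the branch-site pairing bases in capitals is part of a member whose Zfs1 IP/input ratio differed in sign between experiments.
snu2 (chrI:959370-959556, minus strand, bases 24 to 49): tagatcaagtGTAGTAtctgttcttt
The U6 stretch with the ACAGAGA box in capitals belongs to a member near the limit of detection.
snu6 (chrI:2562276-2562419, minus strand, bases 25 to 51 of the spliced RNA): ttgaaacgatACAGAGAagattagcat
The 3′ ends of 4 H/ACA members carry the ACA box in capitals, and the IP/input ratios of these members are described further on.
snR30 (chrI:3394875-3395200, plus strand, bases 303 to 326): ggtaaaaccatacagttgACAttt
sno12 (chrIII:583416-583605, plus strand, bases 167 to 190): gatgggattgtctcccagACAttt
snR93 (chrII:3172781-3172923, plus strand, bases 120 to 143): agtcaagaattgggtggtACAaat
snR95 (chrII:1468185-1468406, minus strand, bases 199 to 222): aagcatcgatagagctgtACAttt
snoZ30 is the only C/D member of up to 108 nucleotides with a value above 0, and both of its ends are shown, box C and box D in capitals.
snoZ30 5′ end (chrII:2044411-2044505, plus strand, bases 1 to 25): aaggaaaTGATGAgacaagttgttc
snoZ30 3′ end (same gene): aatcttctctCTGAtcct

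The AU-rich nonamer TTATTTATT, searched on the annotated strand only, was in 0 of the 60 members, against 700 of 6783 other transcripts (10.3%) and 6 of the 403 other transcripts of up to 350 nucleotides (1.49%). The U3 copies shared 115 of 132 positions (87.1%) in their best local alignment, with a longest shared run of 31 bases. Whether reads from one copy were assigned to the other was not tested. Their annotated spans in this assembly are offset against each other, since the block begins at base 3 of U3A and base 125 of U3B.

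Which members were seen at all followed their length. Of the 32 members of up to 108 nucleotides, 30 were listed at 0 in all 16 libraries, while of the 28 members of 112 nucleotides or more only snR97 was. The exceptions among the short ones were U6 and snoZ30. Other transcripts behaved alike: 192 of 192 annotated transcripts of up to 111 nucleotides were at 0 in all 16 libraries (100%), against 115 of 6591 longer ones (1.74%). Reads were pairs of 100 bases, and the part of fragment length in these zeros was not tested. Of the 18 C/D members only snoU14 and snoZ30 had a value in any library, and in all 31 of the 60 members had none.

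**Figure D1:**
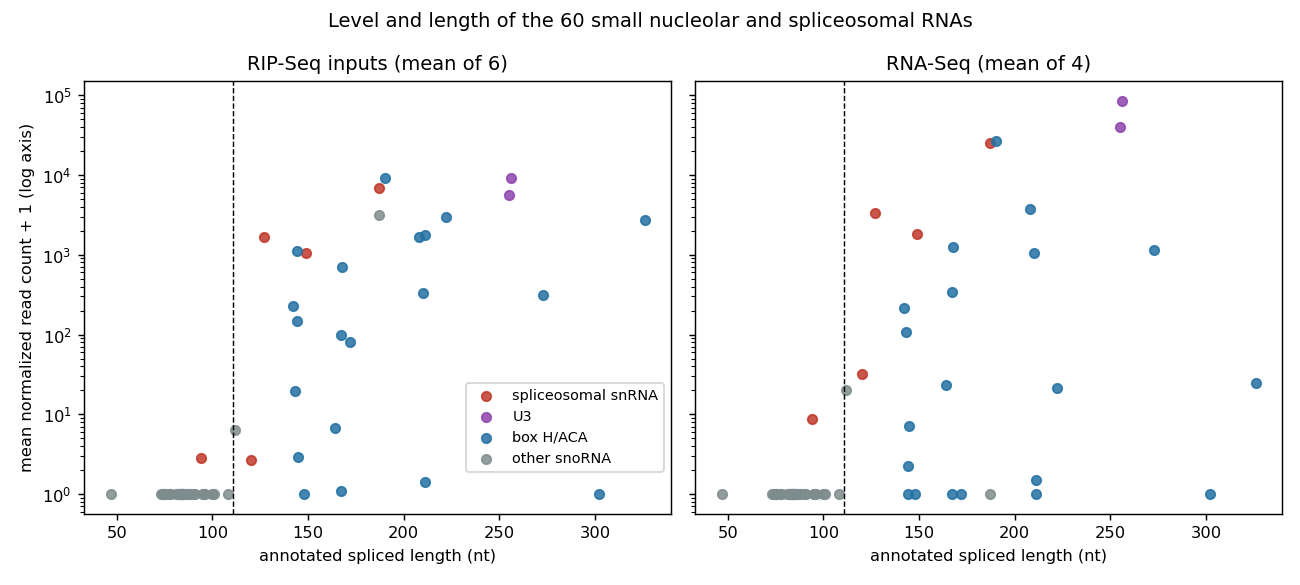
Mean normalized read count plus 1 (log axis) against annotated spliced length in nucleotides for the 60 members, in the 6 RIP-Seq inputs (left) and the 4 RNA-Seq libraries (right), with colours for the classes and a dashed line at 111 nucleotides. Of the 32 members left of the line, 30 sit at 0 in every library, and the U5 and U6 snRNAs lie close to 0 in the inputs.

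For the spliceosomal snRNAs the inputs gave U1, U2 and U4 in quantity and U5 and U6 hardly at all. U2, which pairs with the branch site, had 16709, 4588 and 4074 normalized counts in the Zfs1 inputs and 8921, 4149 and 3028 in the GFP inputs. U5, which holds the exons during ligation, had a mean of 1.64 over the 6 inputs and 31.0 over the 4 RNA-Seq libraries. U6, the catalytic snRNA, had 1.88 and 7.63 on the same measures. U5 and U6 were thus at or near the floor, and neither entered a test.

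Per kilobase of annotated length, sno12 was the highest member in the inputs with a mean of 48639 normalized counts, followed by U2 with 36960, U3A with 35789 and U3B with 22117. Their ranges over the inputs overlapped, but all were measured in the same libraries, so the overlap does not settle this order. U3A was above U3B within each input, with 22102, 6160 and 6458 normalized counts in the Zfs1 inputs, against 14523, 2667 and 3014. In the GFP inputs U3A had 12747, 4252 and 3251, against 9755, 2219 and 1662 for U3B. The U3 spans are offset in the annotation used here, and read sharing between the copies was not tested, which limits this comparison. The rest of the order was not tested. Next on this scale came sno16 with 16686, snR95 with 13292, U4 with 13234, snR98 with 8455, snR30 with 8397 and snR42 with 7942.

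In the RNA-Seq libraries, which were normalized apart from the RIP-Seq ones and so cannot be tested against them, the highest levels per kilobase were U3A with 333210, U3B with 158730, sno12 with 140340 and U2 with 135400. Some members abundant in the inputs were missing there. sno16 had a mean of 3120 normalized counts in the inputs and was listed at 0 in all 4 RNA-Seq libraries, and the same held for snR98 with an input mean of 1784. snR95 averaged 2951 in the inputs and 20.5 in RNA-Seq, snR30 averaged 2738 and 23.7, and snR91 1113 and 1.24. An exact 0 in these tables can be a failed estimate, so nothing is said here of absence. On the same strand, snR98, snR91, snR3 and snR46 overlap other annotated non-coding genes, with which they could share reads, while no such overlap was found for sno16, snR95 and snR30. In all, 22 of the 28 longer members were above 0 in all 6 inputs and 19 in all 4 RNA-Seq libraries.

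Normalized totals were between 8042870 and 72878500 per RIP-Seq library and between 42446100 and 47945100 per RNA-Seq library. Ribosomal RNA held 72.1% of Zfs1 input 1 and 34.7% of GFP input 1, and at most 5.87% of any other library. The labels were checked against genes that the strains lack. leu1 had 170.1 to 600.6 normalized counts in the leu1Δ GFP-TAP strain and 1537 to 11183 in the Zfs1-TAP strain. zfs1 had 6168 and 5866 in the libraries labelled zfs1Δ, against 10098 and 10660 in the wild type, so it was lower but not absent there, and which part of the transcript these reads cover cannot be read from the table.

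As a share of all normalized counts outside ribosomal RNA, the members held 0.123, 0.260 and 0.127% in the Zfs1 IPs of experiments 1, 2 and 3, against 0.579, 0.372 and 0.428% in the Zfs1 inputs. In the GFP IPs they held 0.561, 1.48 and 2.50%, against 0.655, 0.298 and 0.270% in the GFP inputs. The Zfs1 IPs were thus below their inputs in all 3 experiments, and the GFP IPs above theirs in experiments 2 and 3 only. The H/ACA class alone held 0.0406, 0.0489 and 0.0504% in the Zfs1 IPs, against 0.251, 0.172 and 0.208% in the Zfs1 inputs. It held 0.262, 0.476 and 1.47% in the GFP IPs, against 0.250, 0.125 and 0.137% in the GFP inputs. A few members carried much of this sum. In GFP IP 3 snR30 and sno20 had 60057 and 47373 normalized counts, and sno12 had 15974. snR95 and snR98 were below their inputs in all 3 GFP IPs. A share also depends on every other transcript in its library.

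The first comparison asked which members were carried by Zfs1, as the log2 ratio of Zfs1 IP to input on normalized counts plus 1. None rose in the IP and most fell. Of the 19 members that passed the filter of a mean of 1 CPM, each value relative to its library total, 0 rose and 12 fell in limma at an adjusted p under 0.05 over all 5929 transcripts tested (0 and 13 at an unadjusted p under 0.05). Over all transcripts 10.3% rose and 10.8% fell at the adjusted threshold. The share of all transcripts at an unadjusted p was not counted, here or below, so the unadjusted counts have none beside them. The member median was -2.18, beside -0.44 over all transcripts. The fit gave every member tested the same standard error of 0.74. Its p-values thus follow the size of each ratio and not the member's own SD. In experiments 1, 2 and 3 the member medians were -3.80, -1.49 and -1.17, against -1.50, 0.14 and 0.10 over all transcripts, so the shift in experiment 1 was partly shared by all transcripts.

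U1 showed the lowest ratio among the snRNAs. It had 81.6, 102 and 48.7 normalized counts in the Zfs1 IPs, against 2906, 671 and 770 in the Zfs1 inputs. Every IP was below every input. The log2 ratio was -3.93 ± 1.22 (SD, n = 3), with an adjusted p of 6.96e-06 in limma. U4, which pairs with U6 before activation of the spliceosome, had 625, 215 and 224 in the IPs, against 5097, 825 and 796 in the inputs. Each IP was below each input for U4 too, and its log2 ratio was -2.26 ± 0.66 (SD, n = 3) with an adjusted p of 0.0165 in limma.

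U2 did not pass the test. It had 1812, 8924 and 3328 normalized counts in the Zfs1 IPs, against 16709, 4588 and 4074 in the inputs, with log2 ratios of -3.20, 0.96 and -0.29 in experiments 1, 2 and 3. The IP was above the input in experiment 2 only and the groups overlapped. U3A had 2532, 13276 and 2876 in the IPs, against 22102, 6160 and 6458 in the inputs, with log2 ratios of -3.13, 1.11 and -1.17. U3B gave -2.59, 0.78 and -1.32. The U3 copies did not pass either, and the limma adjusted p was 0.421 for U2, 0.302 for U3A and 0.31 for U3B.

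Of the H/ACA class, 13 of 20 members were tested, and the lowest ratios belonged to snR95, snR98 and snR46. snR95 had 140, 81.9 and 323 normalized counts in the Zfs1 IPs, against 5334, 2304 and 2328 in the inputs. Its highest IP was far below its lowest input. The log2 ratio was -4.29 ± 1.27 (SD, n = 3), with an adjusted p of 6.09e-07 in limma. snR98 had 148, 113 and 163 in the IPs, against 3286, 1699 and 1795 in the inputs. These groups were also apart, and the log2 ratio was -3.94 ± 0.50 (SD, n = 3) with an adjusted p of 6.52e-06 in limma. snR46 had 69.9, 16 and 91.7 in the IPs, against 2183, 403 and 381 in the inputs, without overlap, and a log2 ratio of -3.85 ± 1.58 (SD, n = 3).

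sno16, the only longer snoRNA without an assigned class, had 262, 821 and 461 normalized counts in the Zfs1 IPs, against 5389, 3293 and 3702 in the inputs. No IP reached an input, and the log2 ratio was -3.12 ± 1.18 (SD, n = 3) with an adjusted p of 0.000565 in limma. sno12, the most abundant H/ACA member, had 1518, 2935 and 1813 in the IPs, against 21193, 8214 and 9796 in the inputs, again without overlap, and a log2 ratio of -2.57 ± 1.17 (SD, n = 3). snR94, snR5, snR42, snR91 and snR92 also fell, with fitted log2 ratios of -2.75, -2.74, -2.16, -2.05 and -2.18.

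snR30, needed for cleavage of the precursor ribosomal RNA, was not among those that fell. It had 1130, 2502 and 1532 normalized counts in the Zfs1 IPs, against 7352, 716 and 1043 in the inputs. The IP was below the input in experiment 1 and above it in experiments 2 and 3, with log2 ratios of -2.70, 1.80 and 0.55. sno20 had log2 ratios of -3.02, 1.35 and -0.25 and snR101 of -3.30, -1.35 and -0.77, with limma adjusted p of 0.555 and 0.0628.

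The count of members that fell depended on which experiments entered. It was 13 without experiment 1, 6 without experiment 2 and 5 without experiment 3. Over all transcripts the share that fell in these fits was 23.7, 2.49 and 1.57%, so the count of calls moved for transcripts in general. Without experiment 1 snR30 rose, with a log2 ratio of 1.18 and a limma adjusted p of 0.0277, beside 34.3% of all transcripts that rose in that fit. Over its alternatives its adjusted p ran between 0.0277 and 1. Scaling all libraries to equal totals gave a median over all transcripts of 0.23 and left 8 members lower. Over all transcripts it turned 608 higher and 641 lower into 987 and 217. With equal totals without ribosomal RNA 0 members rose and 13 fell, beside 24.5% and 38.2% of all transcripts. Median centring also gave 0 and 13, beside 27.5% and 33.8%. The excess of members that fell over all transcripts was thus smaller with these scalings.

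The second comparison, GFP IP against GFP input, measured what came down in the mock IP, where GFP and not Zfs1 carried the tag. Here members spread in both directions and the experiments differed. Of 22 members that passed the filter, snR3 and snoZ30 did so through the GFP IPs only, which fixes their direction, and they are given no test and left out of the counts. Of the other 20, 0 rose and 0 fell in limma over 5887 transcripts, of which 0.0340% rose and 0.170% fell. At an unadjusted p under 0.05, 6 were higher and 5 lower, but the share of all transcripts at that threshold was not counted. Standard errors differed between members in this fit, from 0.31 for snR98 to 2.11 for sno20. The Zfs1 IP fit used 0.74 for all members, so counts of calls in these fits cannot be compared directly. Several settings gave calls. With a mean-variance trend in the same limma fit, 7 members rose and 5 fell, beside 11.1% and 7.30% of all transcripts. With a pseudocount of 10, 5 rose and 1 fell, beside 3.75% and 4.60%, and with a minimum of 10 CPM 5 of 18 rose and 3 fell, beside 5.92% and 3.72%. Without experiment 1, 5 rose and 0 fell, beside 0.718% and 2.63%. The member medians in experiments 1, 2 and 3 were -0.95, 0.88 and 2.10, against -0.33, 0.39 and 0.0041 over all transcripts.

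sno20 had the largest difference. It had 307, 9340 and 47373 normalized counts in the GFP IPs, against 150, 5.99 and 7.45 in the GFP inputs. All IPs were above all inputs, and those of experiments 2 and 3 by far the most. The log2 ratios were 1.03, 10.38 and 12.45, and the adjusted p was 0.133 in limma. Inputs of the Zfs1-TAP strain had 205, 43.6 and 59.6.

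snR30 had 18627, 46137 and 60057 normalized counts in the GFP IPs, against 5959, 560 and 794 in the GFP inputs. All IPs lay above all inputs, with log2 ratios of 1.64, 6.36 and 6.24 and an adjusted p of 0.117 in limma. U3A had 11002, 112390 and 62024 in the IPs, against 12747, 4252 and 3251 in the inputs. For U3A only experiments 2 and 3 were above the inputs, and the log2 ratios were -0.21, 4.72 and 4.25. U3B gave 0.76, 4.17 and 3.62, with all IPs above all inputs.

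snR3 was listed at 0 or close to it in every input and Zfs1 IP, but had 46.3, 17.0 and 237 normalized counts in the GFP IPs, against 0, 0.576 and 0 in the GFP inputs. Every GFP IP was above every input. snoZ30 was at 0 in all inputs and had 0, 23.8 and 0 in the Zfs1 IPs, against 0, 2.05 and 57.3 in the GFP IPs. With their inputs at or near 0, no fold is given for snR3 or snoZ30. snR3 and snoZ30 each overlap another annotated non-coding gene on the same strand.

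Between these and the snRNAs stood most of the H/ACA class. snR93 had log2 ratios of -0.25, 2.79 and 5.18, snR94 of 0.38, 2.04 and 3.21, snR42 of -0.86, 1.54 and 3.62 and sno12 of -1.32, 1.71 and 1.74. In each of these 4 the ratio of experiment 1 was the lowest. sno16 gave -1.83, 0.57 and 2.45, snR101 1.35, -0.14 and 1.75, snR91 -2.27, 0.98 and 2.84, snR5 -1.34, 1.00 and 0.93, snR10 -0.44, -0.24 and 1.48 and snR46 -1.51, 0.01 and 1.28. None of these 10 passed the test.

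Below their inputs in all 3 GFP IPs were U1, U2, U4, snR95 and snR98. U1 had 153, 263 and 62.6 normalized counts in the GFP IPs, against 1454, 334 and 188 in the GFP inputs, and the groups overlapped. U2 had 2117, 1395 and 2628, against 8921, 4149 and 3028, and each IP was below each input. The log2 ratios of U1 were -3.24, -0.34 and -1.57, those of U2 -2.07, -1.57 and -0.20 and those of U4 -2.80, -2.39 and -0.05. snR95 had 1264, 778 and 1685 in the IPs, against 2620, 2359 and 2760 in the inputs, and snR98 589, 445 and 585 against 1642, 1138 and 1145. Both kept their IPs below every input.

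**Figure D2:**
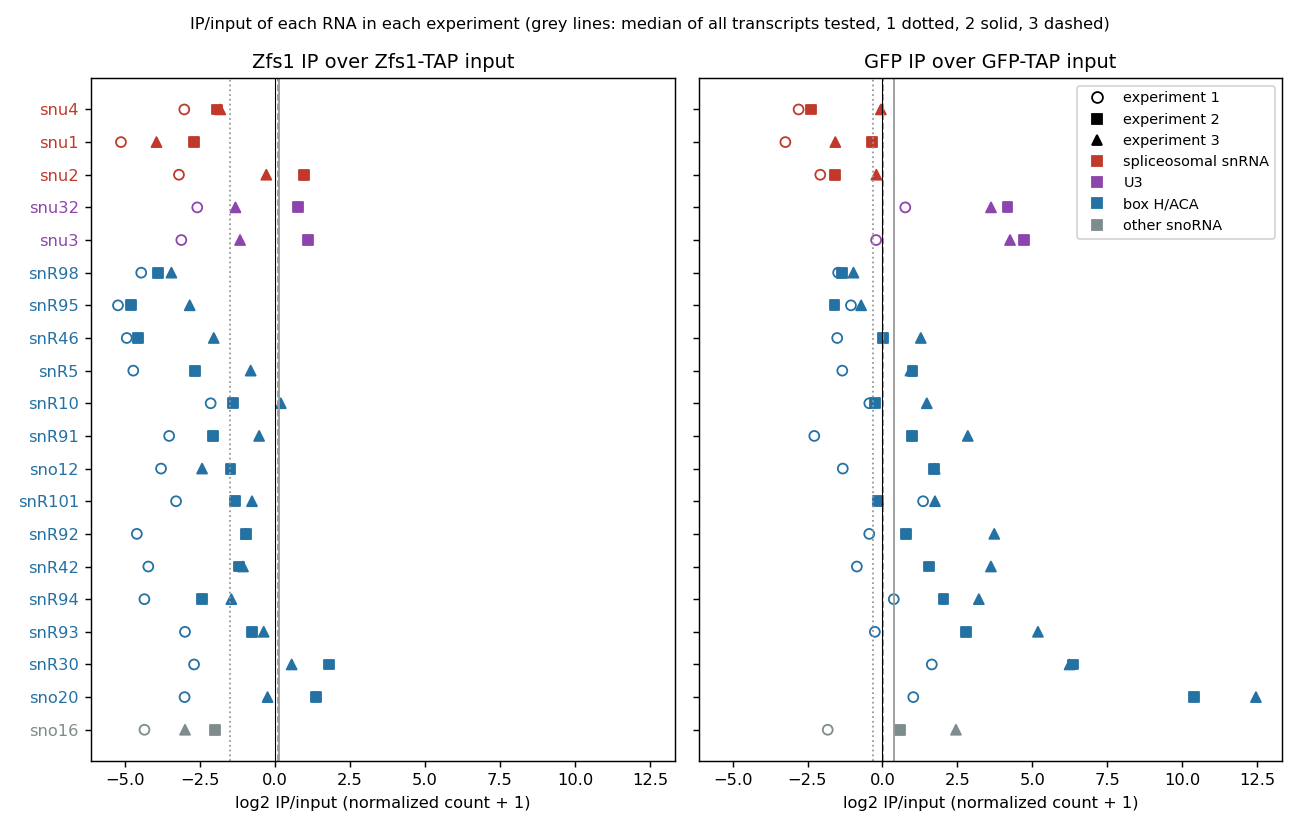
Log2 ratio of IP to input (normalized count plus 1) for the 20 members tested in either comparison, Zfs1 on the left and GFP on the right. Each point is 1 experiment (open circle, square, triangle for 1, 2, 3), colours mark the classes, and grey lines are the medians of all transcripts in each experiment. The Zfs1 points lie mostly below 0, while the GFP points of experiments 2 and 3 reach 10.38 and 12.45 for sno20.

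The third comparison set Zfs1 enrichment against GFP enrichment directly, as the difference of the log2 ratios in a fit over all 12 RIP-Seq libraries. It uses the same libraries as the first and second comparisons and is not independent of them. Of 21 members that passed the filter, snR3 did so through the GFP IPs only and is given no test. Of the other 20, 0 were higher and 14 lower for Zfs1 in limma over 5933 transcripts (0 and 17 at an unadjusted p under 0.05), beside 6.69% higher and 3.62% lower over all transcripts. These shares over all transcripts are at the adjusted threshold only. The member median was -3.40, beside -0.35 over all transcripts.

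The difference was -8.59 ± 1.85 (SE) for sno20, with an adjusted p of 0.00781 in limma. It was -4.86 ± 1.18 for snR30 and -4.62 ± 0.90 for snR94. These 3 had the lowest values among the members tested. In sno20 and snR30 the GFP IPs of experiments 2 and 3 stood far above their inputs, while in experiment 1 the larger departure was that of the Zfs1 IP below its input. The U3 copies followed with -3.98 ± 1.16 for U3A and -3.89 ± 0.97 for U3B. snR93, snR46, snR42, snR92, sno16, sno12, snR95, snR101 and snR98 were also lower for Zfs1, between -3.96 and -2.68. snR93 was low in the Zfs1 libraries, with a mean of 0.506 CPM in the Zfs1 IPs and 0.982 CPM in the Zfs1 inputs, beside 11.2 CPM in the GFP IPs and 1.95 CPM in the GFP inputs. In snR95 and snR98 both IPs were below their inputs, the Zfs1 IPs further so.

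The spliceosomal snRNAs were not called. U1 had a difference of -2.21 ± 0.88 (SE), with a limma adjusted p of 0.0956. U4 had -0.52 ± 0.84 and U2 0.44 ± 0.95, with limma adjusted p of 0.698 and 0.776. U2 was the only member tested with a positive value, which turned to -0.61 without experiment 2. snR5, snR91 and snR10 had -2.93, -2.56 and -1.39 and did not pass either.

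The 14 members became 11 without experiment 1, 4 without experiment 2 and 2 without experiment 3, while the share of all transcripts lower for Zfs1 was 8.62, 0.792 and 0.591% in these fits. Under equal totals the median over all transcripts was 0.57, and this scaling turned 397 higher and 215 lower over all transcripts into 924 and 49, and left 7 members lower. With a mean-variance trend 17 of 20 members were lower, and 17 with a pseudocount of 10, beside 11.3% and 7.87% of all transcripts. Median centring gave 0 higher and 12 lower, beside 19.9% and 24.7% of all transcripts. Equal totals without ribosomal RNA gave 0 and 7, beside 23.4% and 17.1%.

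**Figure D3:**
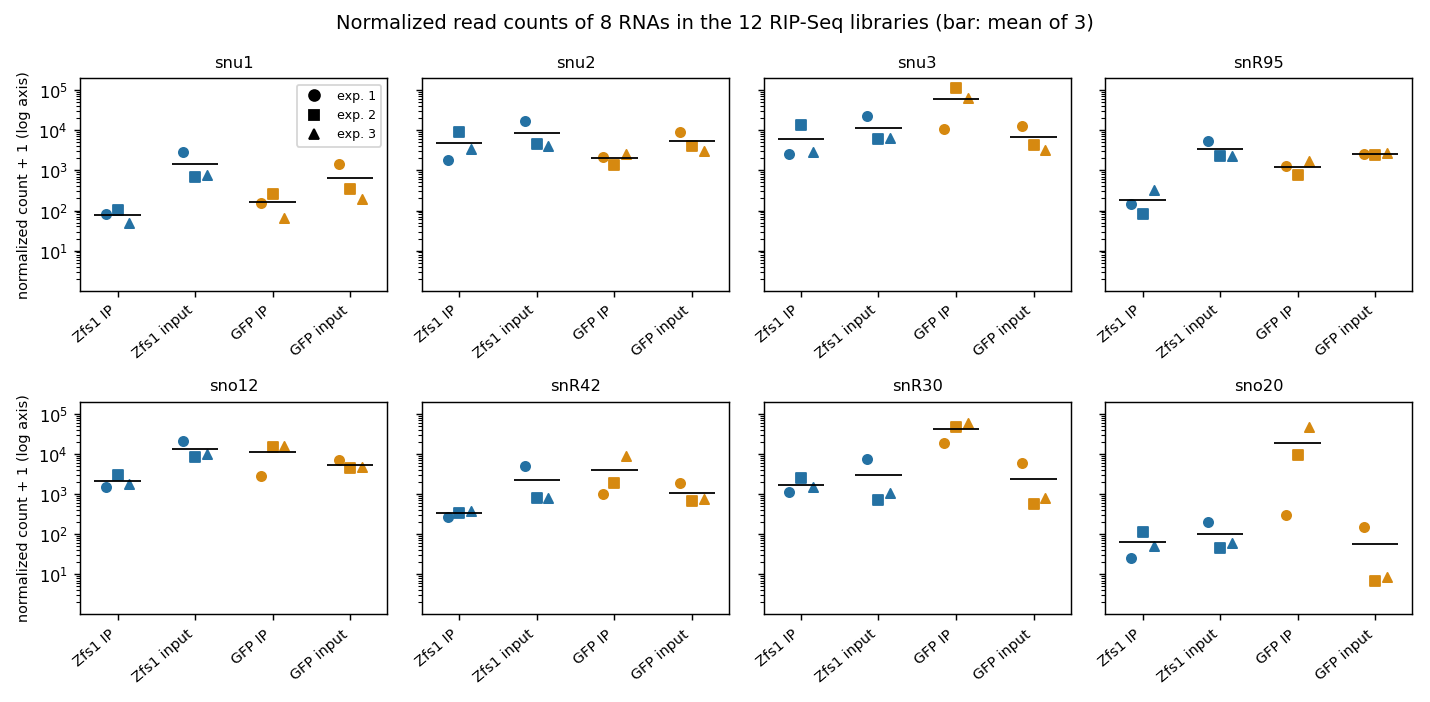
Normalized read count plus 1 (log axis) of 8 members in the 12 RIP-Seq libraries, with Zfs1 IP, Zfs1 input, GFP IP and GFP input from left to right, a symbol for each experiment and a bar at the mean of 3. The sno20 and snR30 panels show GFP IPs of up to 47373 and 60057, while in the snu1 and snR95 panels no Zfs1 IP reaches its inputs.

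Other structured non-coding RNAs that act as parts of ribonucleoproteins were taken as a comparison list of 4. rrk1, the RNA of RNase P, had 152, 267 and 188 normalized counts in the Zfs1 IPs, against 21096, 6918 and 7266 in the inputs, and 2995, 8605 and 7668 in the GFP IPs, against 10115, 4162 and 4472. srp7, the RNA of the signal recognition particle, had 2651, 3433 and 1218 in the Zfs1 IPs, against 27252, 2806 and 2716 in the inputs, and 140500, 386510 and 105170 in the GFP IPs, against 25103, 1866 and 1391. All GFP IPs of srp7 were above all GFP inputs. With mrp1, the RNA of RNase MRP, and ter1, the telomerase RNA, 3 of 4 fell in the Zfs1 IPs (not srp7, adjusted p 0.161 in limma) and 4 of 4 were lower for Zfs1 than for GFP. Their differences of log2 ratios were -5.71 for rrk1, -4.54 for mrp1, -3.51 for ter1 and -6.88 for srp7. The lower values were thus shared by RNAs outside the snoRNA and snRNA classes.

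The mRNAs of the protein partners were not called there. Of 58 genes listed for snoRNP, U3, Sm, Lsm, snRNP and maturation proteins, 57 were matched and tested. In the third comparison 0 were called in either direction by limma, beside 6.69% higher and 3.62% lower over all transcripts. At an unadjusted p under 0.05 there were 7, without a share of all transcripts counted at that threshold. With a mean-variance trend 1 was higher and 1 lower, beside 9.86% and 11.3% of all transcripts. In Zfs1 IP against input 1 of the 57 rose and 9 fell, beside 10.3% and 10.8% of all transcripts. The one that rose was sap49, which encodes a U2 snRNP protein, with a log2 ratio of 2.03 and a limma adjusted p of 0.0336. The lowest was smf1, which encodes an Sm ring protein, with -2.78, and nop10, which encodes an H/ACA core protein, had -2.75.

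The last comparison asked whether the members' levels differed without Zfs1. In the libraries labelled zfs1Δ several were slightly higher than in the wild type, by less than 1 log2 unit in the fit and mainly in experiment 1. Of 13 members tested, 7 rose and 0 fell in limma over 5177 transcripts (8 and 0 at an unadjusted p under 0.05), beside 28.0% that rose and 13.9% that fell over all transcripts. Both shares over all transcripts are at the adjusted threshold. The member median was 0.28, beside 0.05 over all transcripts. In experiment 1 all 13 were above 0 with a median of 0.56, against 0.09 over all transcripts. In experiment 2 only 5 of the 13 were above 0 and the median was -0.10, against 0.015 over all transcripts. The fit has 1 residual degree of freedom, so its errors rest mostly on the spread that limma borrows from other transcripts. In bulk RNA, fewer cells of one kind and less RNA per cell cannot be told apart.

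snR93 had 161 and 115 normalized counts in the zfs1Δ libraries, against 63.1 and 93.7 in the wild type. Both mutant libraries were above both wild type ones, with log2 ratios of 1.33 and 0.30 and a limma adjusted p of 7.97e-05. snR94 had 1282 and 1096 in zfs1Δ, against 877 and 955 in the wild type, and snR101 had 1381 and 1213 against 995 and 1057. Their libraries did not overlap either, and their log2 ratios were 0.55 and 0.20 for snR94 and 0.47 and 0.20 for snR101. sno12 had 31833 and 26691 in zfs1Δ, against 22983 and 25152 in the wild type, and snR46 had 1613 and 1209 against 1059 and 1180. Again no mutant library fell below a wild type one, though in experiment 2 the log2 ratios were as small as 0.09 for sno12 and 0.04 for snR46.

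snR5 and U1 passed the test but were higher in experiment 1 only. snR5 had 269 and 205 in zfs1Δ, against 153 and 222 in the wild type, and log2 ratios of 0.81 and -0.11. U1 had 2198 and 1742, against 1396 and 1841, and log2 ratios of 0.65 and -0.08. Both overlapped between the strains. U2, U4, U3A and U3B had the same pattern without passing, with log2 ratios of 0.60 and -0.18, 0.59 and -0.11, 0.46 and -0.19 and 0.56 and -0.23. snR42 had 0.49 and -0.11 and snR10 0.18 and -0.24.

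These calls depended on the scaling and on the experiment block, and the sizes of the changes on single libraries. Some settings gave more: 10 of the 13 rose with a mean-variance trend and 8 with a pseudocount of 10, beside 30.9% and 28.8% of all transcripts. With a minimum of 10 CPM 8 of 10 rose, beside 29.1%. All 7 were lost when libraries were centred on their median transcript or scaled to equal totals without ribosomal RNA, where 20.1% and 17.0% of all transcripts still rose, and 4 were left with equal totals. Over all transcripts, equal totals gave 905 higher and 1492 lower, where the reported fit gave 1447 and 719. Without the experiment block 3 of the 13 rose, beside 27.4% of all transcripts, and deviations of same-numbered RNA-Seq libraries from their strain means correlated by -0.066, so the numbers did not pair these libraries in the data. Member medians were 0.0947 without wild type library 1 and 0.343 without wild type library 2, beside 0.034 and 0.074 over all transcripts. They were 0.113 without zfs1Δ library 1 and 0.455 without zfs1Δ library 2, beside 0.035 and 0.070. Those fits have no block and leave 1 library in a strain, so a transcript's own spread comes from the other strain alone. Ribosomal RNA held 4.79 and 3.61% of the zfs1Δ libraries, against 2.51 and 3.87% of the wild type ones, and its part in these values was not tested.

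**Figure D4:**
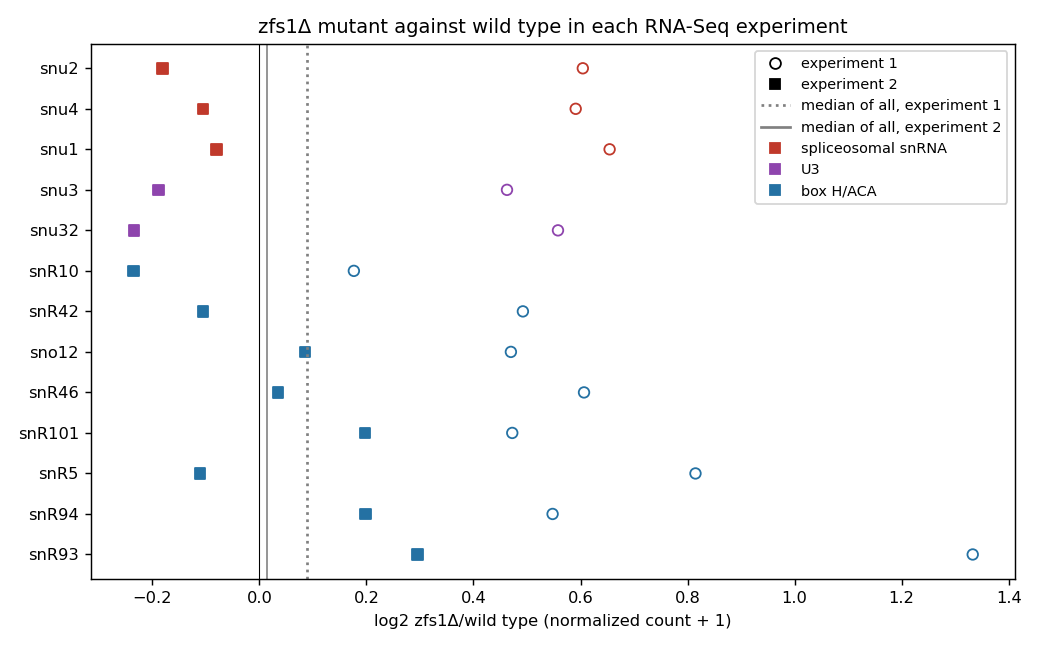
Log2 ratio of zfs1Δ to wild type (normalized count plus 1) for the 13 members tested, with open circles for experiment 1, filled squares for experiment 2 and grey lines at the medians of all transcripts. All circles are above 0 and 8 of 13 squares are below it, and no member passes the test once libraries are centred on their median transcript.

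Among the other structured RNAs, 3 of 4 rose in zfs1Δ: rrk1 with log2 ratios of 0.63 and 0.04, mrp1 with 0.65 and 0.28 and srp7 with 0.82 and 0.09. Each was higher in experiment 1 than in experiment 2, as among the members. Of the protein partners' mRNAs 11 of 54 rose and 1 fell, beside the 28.0% and 13.9% of all transcripts. The highest was prp11, which encodes a U2 snRNP protein, with log2 ratios of 0.54 and 0.43 in experiments 1 and 2, and the one that fell was smg1, an Sm ring protein gene, with -0.16 and -0.19.

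Outside the rule for named members, snR36, snoU14, snR33, snR96 and snR90 had low values and were not tested in any comparison. They were singled out after their values were seen. snoU14, at 112 nucleotides the shortest member above the length limit, had 2.57, 5.16 and 9.40 normalized counts in the Zfs1 IPs, against 11.8, 2.40 and 1.29 in the Zfs1 inputs, and 10.4, 28.3 and 7.63 in the GFP IPs, against 10.3, 4.2 and 1.75 in the GFP inputs. Its groups overlapped in both strains. The remaining 4 stayed at or below 25.5 in every library. snR92, snR97 and snoZ30 were likewise named for their values.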

How the data were processed

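The authors made strand-specific paired-end libraries (100 bases, after ribosomal RNA depletion), mapped them with Bowtie 0.12.7 and estimated reads per transcript with RSEM 1.1.19, and, per the labels, normalized the estimates with edgeR. The deposited values are this normalized signal, one table for RIP-Seq and one for RNA-Seq, normalized apart. They are not whole numbers and reads could not be recovered from them, so the depth behind a value is unknown and no count model was fitted. Values below 1e-10 were read as 0.

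Log2 of the value plus 1 was fitted with limma 3.58.1 (R 4.3.3) over all transcripts averaging 1 CPM or more in the libraries of the fit, with the experiment number as a block and without a mean-variance trend. Benjamini-Hochberg adjustment ran over all transcripts tested, with a threshold of 0.05, two-sided. Each IP was paired with the input of the same experiment number, since the paper's methods took paired samples into account. No label says that both came from the same extract. Deviations of same-numbered IP and input libraries from their group means correlated by 0.485, 0.237 and 0.356 for Zfs1 and by 0.275, 0.22 and 0.093 for GFP. For the RNA-Seq libraries, where the block followed the study's methods, the correlation was -0.066. Members that passed the filter through 1 group only, with the mean of the other groups under 1 CPM, were given no test, a rule set after their values were seen. The script was tested on simulated data. Python 3.11.15, pandas 2.3.3 and Biopython 1.88 handled tables and sequences, and matplotlib 3.10.9 the figures.

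Gene names, spans, classes and sequences came from RefSeq assembly ASM294v3, matched by locus tag. The authors' annotation was an earlier PomBase release, not used here, so lengths and overlaps may differ from theirs. The members, comparison lists and tests were chosen with earlier results of these data known. Named were all SPSNRNA. members and, of the SPSNORNA. members, the 10 highest in the inputs, the 5 highest and 5 lowest in the difference between Zfs1 and GFP enrichment, and up to 5 called in zfs1Δ in each direction. Alternatives were another pseudocount, no filter, a minimum of 10 CPM, 3 other scalings, the trend, no block, and leaving out each experiment or library.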

Additional observations from a re-analysis of the deposited data

Results flagged for a closer look

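Zfs1 and GFP enrichment differed for 14 members by a test of the difference itself in limma, with the Zfs1 value lower in each. The differences of log2 IP/input, with their adjusted p in limma, were -8.59 (0.00781) for sno20, -4.86 (0.0152) for snR30, -4.62 (0.00439) for snR94 and -3.98 (0.0344) for U3A (snu3). They were -3.96 (0.0268) for snR93, -3.89 (0.0177) for U3B (snu32), -3.78 (0.0146) for snR46, -3.60 (0.0339) for snR42 and -3.54 (0.0406) for snR92. They were -3.52 (0.0272) for sno16, -3.28 (0.0283) for sno12, -3.17 (0.0187) for snR95, -2.79 (0.04) for snR101 and -2.68 (0.0275) for snR98. Of the members tested, 11 were lower without experiment 1, 4 without experiment 2 and 2 without experiment 3, beside 8.62, 0.792 and 0.591% of all transcripts.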

How the results depend on the processing

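Depth behind each value is unknown, GFP-TAP and Zfs1-TAP strains differ in more than the tagged protein, experiment 1 inputs hold much ribosomal RNA, and the RNA-Seq comparison rests on 2 libraries a strain, so small differences cannot be settled. Without a filter on low values no member passed in any comparison, against 12 lower for Zfs1 IP, 14 lower for Zfs1 against GFP enrichment and 7 higher in zfs1Δ, and the median over the members was 0 for Zfs1 IP and for Zfs1 against GFP enrichment. In these fits 0 of all 7018 transcripts passed either, except 13 higher and 4 lower for Zfs1 against GFP enrichment. For GFP IP against input, 5 members rose and 1 fell with a pseudocount of 10 (221 and 271 of all transcripts), 5 rose and 3 fell with a minimum of 10 CPM (283 and 178), and 7 rose and 5 fell with the mean-variance trend (651 and 430), where the reported fit gave 0 and 0 (2 and 10). For Zfs1 against GFP enrichment, 7 members were lower with equal totals and 7 with equal totals without ribosomal RNA (49 and 1014 of all transcripts, against 215), with member medians of -2.47 and -2.86, and 8 were lower without the replicate block (334). In zfs1Δ 4 members rose with equal totals, 0 with equal totals without ribosomal RNA, 0 with median centring and 3 without the replicate block (905, 881, 1040 and 1419 of all transcripts, against 1447). Over all transcripts the median moved to 0.23 with equal totals for Zfs1 IP, to -0.27 with equal totals and -0.47 with equal totals without ribosomal RNA for GFP IP, and to 0.57 and 0.19 with these scalings for the difference.

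Leaving out each experiment in turn gave 0 to 1 members higher and 5 to 13 lower for Zfs1 IP and 0 to 5 higher for GFP IP. For Zfs1 against GFP enrichment it gave 2 to 11 lower, with member medians of -3.48 to -3.0. Over all transcripts the shares were 1.27 to 34.3% higher and 1.57 to 23.7% lower for Zfs1 IP. They were 0 to 0.718% higher for GFP IP and 0.591 to 8.62% lower for the difference. In zfs1Δ, leaving out each library gave member medians of 0.0947 to 0.455. Directions turned for members that had not passed. For Zfs1 IP the leave-outs ran from -1.07 to 1.18 for snR30, from -1.63 to 0.55 for sno20 and from -1.75 to 0.33 for snu2 (log2), and equal totals gave 0.56 for snR30 and 0.0271 for sno20, median centring 0.11 for snR30. For GFP IP they ran from -0.63 to 1.51 for sno16, -0.20 to 0.97 for snR5, -0.34 to 0.62 for snR10, -0.75 to 0.64 for snR46 and -0.65 to 1.91 for snR91, equal totals gave -0.0529 for snR5, and equal totals without ribosomal RNA -0.0568 for sno16, -0.25 for snR5 and -0.18 for snR10. For the difference they ran from -0.61 to 1.22 for snu2 and -1.0 to 0.11 for snu4, and snu4 had 0.41 with equal totals and 0.0207 with equal totals without ribosomal RNA. In zfs1Δ they ran from -0.14 to 0.0820 for snR10, -0.0634 to 0.49 for snu2, -0.0517 to 0.33 for snu3, -0.0326 to 0.52 for snu4 and -0.0658 to 0.39 for snu32. The causes of these changes were not tested.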
